A study of Mus musculus with 12 samples.

Results

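Tex10 degradation was examined at day 2 in PGCLCs (mouse primordial germ cell-like cells), by comparing 2 libraries of cells given dTAG13 with 2 libraries of cells given its solvent DMSO, of 12 libraries in the study. PGCLCs are cultured counterparts of the embryonic cells that become sperm and eggs. They were derived from J1 male embryonic stem cells and sorted from day 2 embryoid bodies for CD61 and SSEA1, and both groups had 2 days of treatment. dTAG13 is a small molecule that brings a protein carrying a matching tag to the cell's ubiquitin ligase, so that the proteasome destroys it. The labels used here give neither the tag nor the dose nor the number of clones, and no dTAG13 library of untagged cells is among them. Of 12955 genes in the deposited table, 12059 reached 1 FPKM (fragments per kilobase of transcript, scaled to the mapped fragments of a library) in at least 2 of the 12 libraries and were tested, and 896 did not.

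Tex10 is a nuclear protein of a small complex with Pelp1, Wdr18, Senp3, Las1l and Nol9, which acts in the maturation of the large ribosomal subunit and is also known from work on pluripotency and on silent chromatin. When ribosome production is disturbed, free ribosomal proteins can bind Mdm2, the ligase that keeps the p53 protein low, and p53 then switches on genes of arrest, repair and cell death. That is background to the gene lists below and was not tested here. The cells are from 1 embryonic stem cell background, and nothing in the labels shows that paired libraries are separate cultures, so the p-values measure only the spread between these libraries, which may be technical.

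The libraries of the 2 groups differed in quality. Summed FPKM ran from 584881 to 633830 in the 4 libraries. DMSO replicates 1 and 2 list 67 and 66 genes at 0, dTAG13 replicate 2 lists 84, and dTAG13 replicate 1 lists 2008 (15.5% of the table), against 18 to 127 in the other 8 libraries. The 2 DMSO libraries correlated across genes at r = 0.995, the 2 dTAG13 libraries at 0.928, and the other 4 pairs at 0.992 to 0.996. Sequencing depth is unknown, so a 0 cannot be given a limit. All 4 libraries list the Y-linked genes Eif2s3y and Uty at 0 and Ddx3y at 0.01 FPKM or less. Eif2s3y read 26.9 to 46.3 in the other 8, so the DMSO and dTAG13 cells share this difference from the labelled male line. Itgb3, which encodes the sorting marker CD61, read 1.29 and 0.734 FPKM with DMSO and 0 and 0.83 with dTAG13.

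With both dTAG13 libraries, 1473 of the 12059 tested genes passed an adjusted p of 0.05 (12.2%; limma with Benjamini-Hochberg adjustment, on log2(FPKM + 1), a scale that understates changes of low genes). The median change of all tested genes was -0.13 on this scale, so small changes are read against that shift. Of all tested genes, 483 rose (4.01%) and 990 fell (8.21%), so 32.8% of the calls were rises, and this share was 50.9% after quantile normalization and 54.2% after median-ratio scaling. With dTAG13 replicate 2 alone against DMSO, 764 genes rose (6.34%) and 2046 fell (17.0%). Both fits called 451 of the same genes higher (3.74%) and 917 lower (7.6%). Of the 990 genes that fell, 159 are listed at 0 in dTAG13 replicate 1.

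**Figure D1:**
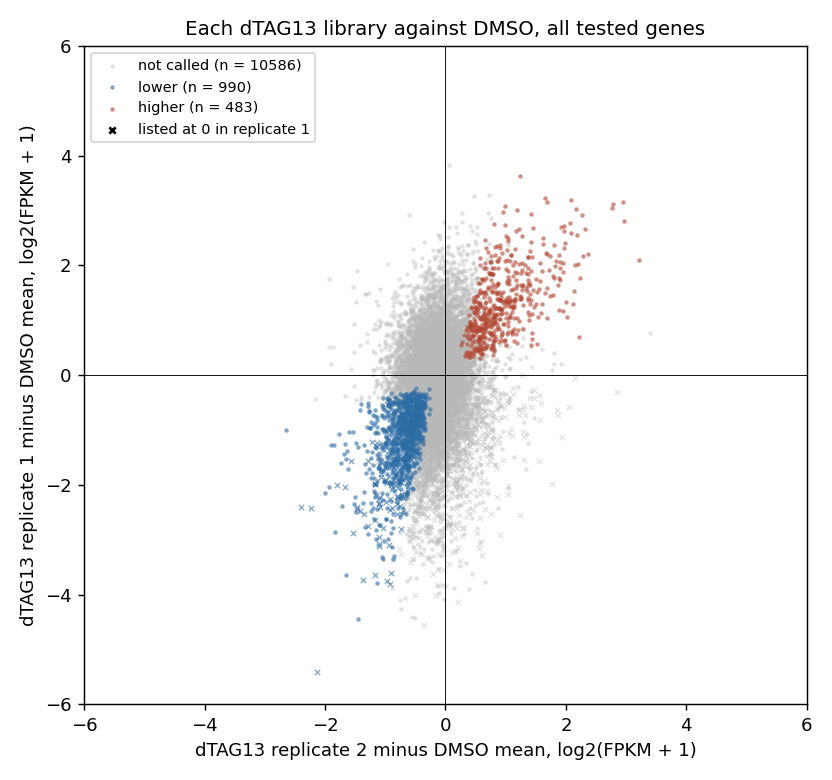
Difference of dTAG13 replicate 2 (x axis) and of dTAG13 replicate 1 (y axis) from the DMSO mean, in log2(FPKM + 1), with 1 point per tested gene, red for the 483 called higher, blue for the 990 called lower, and crosses for genes listed at 0 in replicate 1. The cloud is longer along replicate 1 than along replicate 2, and the called genes lie on the same side of 0 in both libraries.

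The number of calls rests on how the spread is shared among groups. The test borrows its spread from all 6 groups of the study, and the dTAG13 pair is far wider than the rest. A fit that leaves 1 library in a group takes that library to vary like the other groups. Its counts and adjusted p-values, here and below, hold no spread of that group's own. Leaving out a dTAG13 library also removes that pair's wide spread from the fit. Without DMSO replicate 1 the counts were 168 higher and 79 lower, and without DMSO replicate 2 they were 120 and 82. A total of 112 rises (0.929% of tested genes) and 57 falls (0.473%) held in each of the 4 fits that leave out 1 of the 4 libraries, and these are described below as held in all leave-one-out fits. When the dTAG13 libraries were given 1 weight of their own, estimated from their spread and chosen after seeing the data, 14 genes rose (0.116%) and 4 fell (0.0332%). With only the DMSO and dTAG13 groups in the fit, 0 genes passed in limma and 1258 had an unadjusted p below 0.05.

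The Tex10 transcript (GRCm38, chr4:48430858-48473464) read 61.7 and 56.8 FPKM with DMSO and 45.2 and 36.5 with dTAG13. Both dTAG13 values lay below both DMSO values. It fell by 0.53 on the log2 scale (SE 0.15, adjusted p = 0.0425), with adjusted p = 0.225 without DMSO replicate 1 and 0.145 without DMSO replicate 2. A degrader acts on protein, which was not measured, so this value does not check the degradation. Because these are bulk samples, fewer cells of a type and less RNA per cell cannot be told apart, here and in the results that follow.

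Pelp1, the scaffold of the complex, read 20 and 18.5 FPKM with DMSO and 5.7 and 9.46 with dTAG13. Its fall of 1.27 was the largest of the 7 genes measured for the complex (SE 0.21, adjusted p = 0.0068). Senp3, a SUMO protease, read 108 and 99.4 against 74 and 59.4 and fell by 0.64 (adjusted p = 0.0116). Of the 7, these 2 and Tex10 fell (42.9%, beside 8.21% of all tested genes) and none rose in this fit. None of the 3 calls held when either DMSO library was left out. Wdr18 changed by -0.45 (adjusted p = 0.0566), Las1l by -0.10, Nol9 by 0.34 and the AAA-type remodeller Mdn1 by -0.22. Las1l and Nol9, which cut and process the spacer RNA of the ribosomal precursor, had dTAG13 values on either side of the DMSO values. Nol9 read 162 in replicate 1 and 77.1 in replicate 2, against 87.2 and 89.5.

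Target genes of p53 formed the group with the largest share of rises among the lists of 10 or more genes. Of 56 tested targets in 3 lists, 32 rose (57.1%) and 1 fell (1.79%), beside 4.01% and 8.21% of all tested genes. Their median log2 change was 0.85 against -0.13 for all genes. dTAG13 replicate 1 gave a median of 0.98 for these targets and replicate 2 gave 0.76. Without DMSO replicate 1 the rises numbered 18, without DMSO replicate 2 they numbered 14, and 14 held in all leave-one-out fits. With 1 weight for the dTAG13 libraries 3 passed (Btg2, Mdm2 and Plk2).

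Of 20 tested targets for arrest and feedback, 12 rose and none fell in this fit, with a median of 0.86. Mdm2, which marks p53 for destruction and is itself a p53 target, read 93.2 and 78.8 FPKM with DMSO and 559 and 328 with dTAG13. Cdkn1a, the p21 inhibitor of cyclin-dependent kinases, read 31.4 and 30.6 against 82.3 and 69.9. Plk2, a polo-like kinase, read 46.5 and 39.5 against 181 and 168. In each of these genes both dTAG13 libraries were above both DMSO libraries, by 2 or more times. The log2 rise was 2.31 for Mdm2 (SE 0.22, adjusted p = 0.000468), 1.26 for Cdkn1a (SE 0.12, adjusted p = 0.000487) and 2.00 for Plk2 (SE 0.13, adjusted p = 0.000205). Btg2, an antiproliferative cofactor, read 17.4 and 15 against 71.5 and 60.3 and rose by 1.95 (SE 0.14, adjusted p = 0.000205). All 4 held in all leave-one-out fits. Trp53inp1 rose by 1.47 and Rprm by 2.18, but neither passed without DMSO replicate 2 (adjusted p = 0.0969 and 0.0654).

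The promoter of Cdkn1a is shown because its window was the only 1 with a match, among 46 p53 targets with a promoter sequence. A full p53 response element was searched by name on both strands, with up to 13 bases allowed between its parts. The window runs from 250 bases before to 50 after the start site, from the RefSeq table for GRCm38.p6, and 24 of all 32851 windows (0.0731%) held a match. The capitals mark the match, the stretch lies at chr17:29090896-29090947 on the plus strand, and the match ends 41 bases before the start site. The lowercase letters are flank outside this match, and other forms of the element were not searched. Sequence outside the window was not searched either, so a target without a match here may hold an element elsewhere. A match is a description of letters, and binding was not measured.
Cdkn1a: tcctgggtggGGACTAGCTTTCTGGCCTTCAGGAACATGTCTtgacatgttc

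Of 16 tested p53 targets for cell death, 9 rose (56.2%, beside 4.01% of all tested genes) and none fell, with a median of 0.87. Perp, a membrane protein of desmosomes that takes part in p53-dependent death, read 103 and 77.2 FPKM with DMSO and 433 and 238 with dTAG13. Phlda3, which restrains Akt signalling, read 92.7 and 95.7 against 232 and 252. Both genes had all dTAG13 values at more than 2 times every DMSO value, and they rose by 1.83 (SE 0.25, adjusted p = 0.00257) and 1.35 (SE 0.12, adjusted p = 0.000377). The p53 relative Trp73 rose by 1.50, from 3.05 and 3.54 to 11.6 and 10.8. These 3 held in all leave-one-out fits. Pmaip1, which encodes the BH3-only protein Noxa, rose by 1.65 and the death receptor Fas by 2.44, and both calls were lost without either DMSO library (adjusted p = 0.0536 to 0.112). Bax, the pore-forming death effector, read 456 and 454 against 476 and 575, a change of 0.20 that did not pass (adjusted p = 0.208).

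Of 20 tested p53 targets for repair and metabolism, 11 rose (55.0%) and 1 fell (5.0%), beside 4.01% and 8.21% of all tested genes. The list median was 0.63. The xylulose reductase Dcxr read 30.6 and 30.5 FPKM with DMSO and 76.5 and 94.9 with dTAG13. Its rise was 1.45 (SE 0.17, adjusted p = 0.00148). Tap1, a subunit of the peptide transporter for antigen presentation, rose by 1.95, the growth regulator Cgref1 by 1.93, the epoxide hydrolase Ephx1 by 1.27 and the lipid transfer protein Pltp by 1.07. These 5 held in all leave-one-out fits. Steap3, an iron reductase, was the 1 target called lower, by 0.99, and this call did not hold when either DMSO library was left out. Lower values occurred without a call. The lowest change was -2.43 in this list and -1.20 in the arrest and feedback list.

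**Figure D2:**
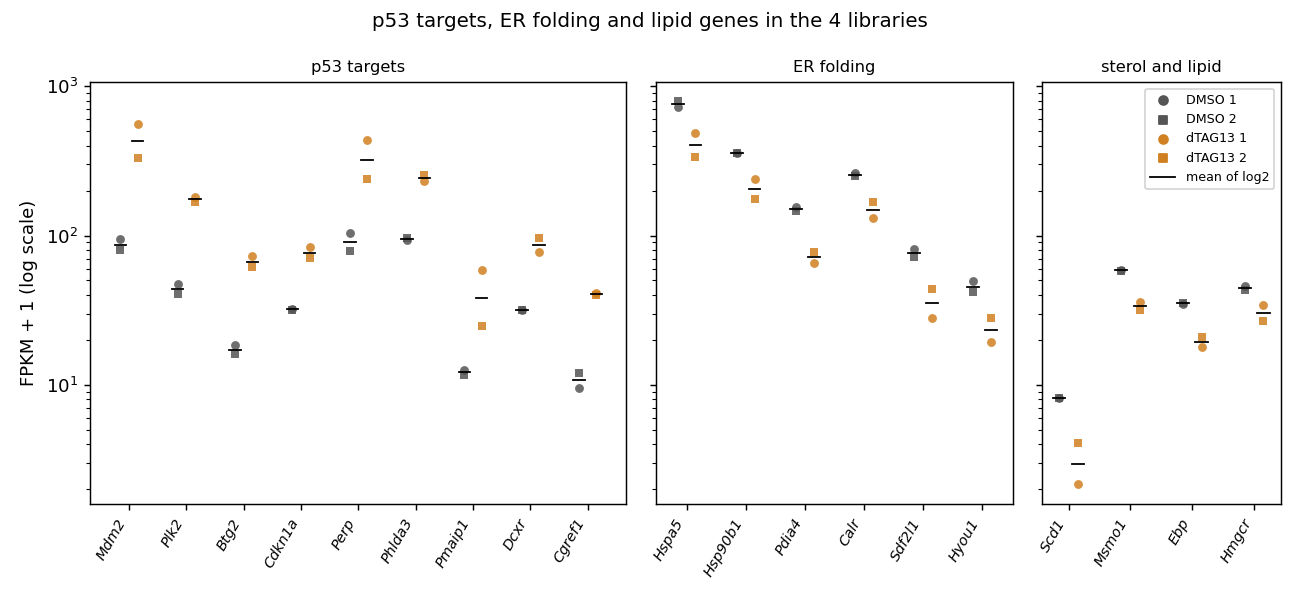
FPKM + 1 (log axis) of p53 targets, ER folding genes and sterol and lipid genes in each of the 4 libraries, grey for DMSO and orange for dTAG13, with circles for replicate 1, squares for replicate 2 and a bar at the mean of the log2 values. The dTAG13 points of Mdm2, Plk2 and Btg2 stand above the DMSO points, and those of Hspa5, Pdia4 and Scd1 below.

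Genes of the ATF4 program, which cells use under amino acid shortage and other stress, split in direction. Of 26 tested, 3 rose (11.5%) and 3 fell (11.5%), beside 4.01% and 8.21% of all tested genes, with a median of -0.21. Ddit3, which encodes the stress factor CHOP, read 6.81 and 7 FPKM with DMSO and 26 and 28.3 with dTAG13 and rose by 1.83 (SE 0.15, adjusted p = 0.000244). Atf3, a stress-induced transcription factor, read 2.4 and 1.97 against 13.7 and 9.26 and rose by 1.95 (adjusted p = 0.00341). Both held in all leave-one-out fits. The pseudokinase Trib3 rose by 1.10 and did not pass without DMSO replicate 2 (adjusted p = 0.0546). The amino acid transporter Slc7a5 fell by 0.88, the alanine transaminase Gpt2 by 0.50 and the serine synthesis enzyme Phgdh by 0.45, and none of the 3 passed without a DMSO library. Atf4 itself read 39.4 and 36.2 with DMSO, 20.5 in dTAG13 replicate 1 and 58 in replicate 2, so the dTAG13 libraries lay on opposite sides of the DMSO values.

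Genes for protein folding in the endoplasmic reticulum (ER) were lower. These chaperones, disulfide isomerases and regulators are the classical targets of the unfolded protein response, in which ATF6 and Xbp1 bind ER stress elements in promoters. Of 20 tested, 12 fell and none rose with both libraries, 14 fell with dTAG13 replicate 2 alone, and 17 had both dTAG13 values below both DMSO values, as did 34.7% of all tested genes. The median change was -0.68, with -0.52 in replicate 1 and -0.65 in replicate 2. After quantile normalization or median-ratio scaling 11 still fell. Without DMSO replicate 1 only 1 fell, without DMSO replicate 2 the number was 3, and Pdia4 alone held in all leave-one-out fits.

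The ER stress element was searched as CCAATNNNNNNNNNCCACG on both strands of the same RefSeq promoter windows (GRCm38.p6), and the matches in ER folding genes are shown because it is a known element of unfolded protein response promoters. It was found in 39 of 32851 windows (0.119%) and in 8 of the 18 ER folding genes with a window (44.4%). The element contains the CCAAT box, which 37.4% of all windows hold. Capitals mark the match, and each stretch is given on the strand of its gene. The first 5 genes fell and the last 3 did not pass.
Hspa5 at chr2:34772015-34772053, plus strand: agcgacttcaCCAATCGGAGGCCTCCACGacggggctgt
Hsp90b1 at chr10:86705523-86705561, minus strand: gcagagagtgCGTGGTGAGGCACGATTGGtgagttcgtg
Hsp90b1 at chr10:86705628-86705666, minus strand: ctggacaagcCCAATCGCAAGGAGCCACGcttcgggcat
Calr at chr8:84847065-84847103, minus strand: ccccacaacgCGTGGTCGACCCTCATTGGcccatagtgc
Dnajc3 at chr14:118937817-118937855, plus strand: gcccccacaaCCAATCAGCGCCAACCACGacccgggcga
Pdia6 at chr12:17266481-17266519, plus strand: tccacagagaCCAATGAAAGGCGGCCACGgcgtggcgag
Syvn1 at chr19:6046522-6046560, plus strand: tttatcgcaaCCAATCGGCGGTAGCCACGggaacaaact
Canx at chr11:50325790-50325828, minus strand: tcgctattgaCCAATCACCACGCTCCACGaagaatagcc
Creld2 at chr15:88819510-88819548, plus strand: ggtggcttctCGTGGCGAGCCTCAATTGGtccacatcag

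Hspa5 (BiP), the main ER chaperone, read 725 and 791 FPKM with DMSO and 490 and 336 with dTAG13. Hsp90b1, the ER form of Hsp90, read 358 and 359 against 240 and 174. Pdia4, a disulfide isomerase, read 153 and 145 against 64.9 and 76.9. In all 3 the dTAG13 libraries were below both DMSO libraries. The log2 fall was 0.90 for Hspa5 (SE 0.17, adjusted p = 0.0105), 0.81 for Hsp90b1 (SE 0.16, adjusted p = 0.0128) and 1.06 for Pdia4 (SE 0.10, adjusted p = 0.000495). Hspa5 missed the threshold without DMSO replicate 1 (adjusted p = 0.0611) and without DMSO replicate 2 (0.0921).

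Sdf2l1 fell by 1.12, the chaperone Hyou1 by 0.96, the oxidase Ero1l by 0.94, the calcium-binding chaperone Calr by 0.78, and Dnajc3 and Pdia6 by 0.70 each. None of these 6 passed without DMSO replicate 1. Syvn1 changed by -0.37, the chaperone Canx by -0.24 and Creld2 by -0.13, none past the threshold. Among ER folding genes with a window, 5 of the 8 with the element fell and 5 of the 10 without it fell. Across the genome, 7 of the 21 tested genes with the element fell (33.3%) and none rose, with a median of -0.63, beside 8.1% falling among all 9649 tested genes with a window. Of these 21, 8 are the ER folding genes above, which give 5 of the 7 falls, and 2 of the 13 outside that list fell (15.4%). Those 2 were Derl3, which acts in the disposal of ER proteins, by 1.12, and Zfp57, described below.

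Genes for sterol and fatty acid synthesis and uptake were lower as well. Of 29 tested, 12 fell (41.4%, beside 8.21% of all tested genes) and none rose. Both dTAG13 values lay below both DMSO values for 22 of the 29, as for 34.7% of all tested genes. The median change was -0.45 (-0.42 in replicate 1 and -0.56 in replicate 2). Quantile normalization and median-ratio scaling each left 8 falls. Leaving out either DMSO library left 1. Scd1, the desaturase of fatty acids, read 7.18 and 7.14 FPKM with DMSO and 1.14 and 3.05 with dTAG13. Both dTAG13 values lay below both DMSO values, and it fell by 1.47 (SE 0.27, adjusted p = 0.00979). The cholesterol synthesis enzymes Ebp, Lss, Msmo1 and Nsdhl fell by 0.78 to 0.86, and none of them nor Scd1 passed without a DMSO library (adjusted p = 0.0516 to 0.205).

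**Figure D3:**
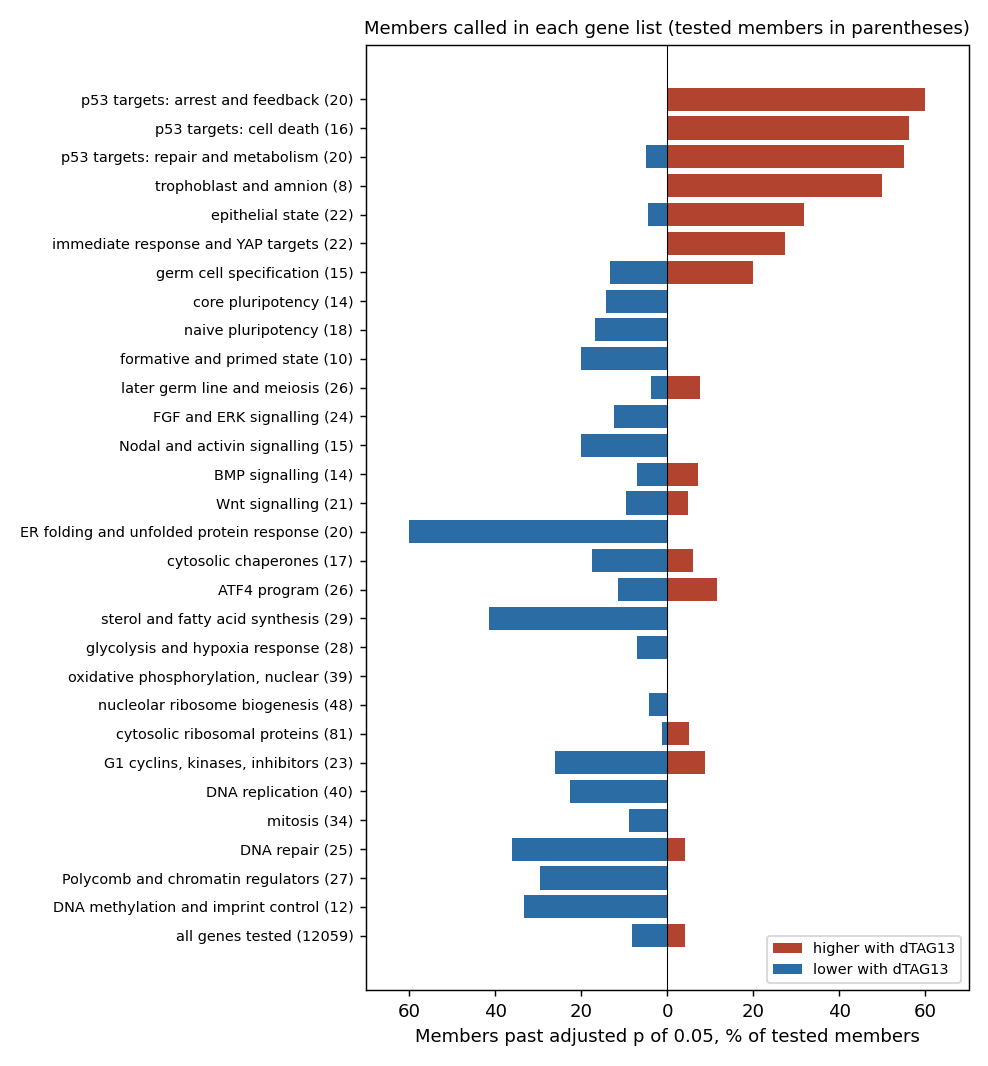
Share of the tested members of each gene list that passed an adjusted p of 0.05, with rises in red to the right and falls in blue to the left, in percent of tested members (their number in parentheses). The p53 lists and the ER folding genes stand farthest from the shares for all genes tested in the lowest bar, which are 4.01% higher and 8.21% lower.

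Genes of germ cell fate moved in both directions. Of 15 tested germ cell specification genes 3 rose and 2 fell, with a median of -0.50, and none of the 5 held in all leave-one-out fits. After quantile normalization 3 rose and 1 fell, and after median-ratio scaling 3 rose and none fell. Dppa3 (Stella), a protector of the germ line methylation state, read 42.4 and 31.6 FPKM with DMSO and 75.8 and 69.2 with dTAG13. Its rise was 0.96 (SE 0.19, adjusted p = 0.0124), with adjusted p = 0.117 without DMSO replicate 2. Tfap2c, one of the transcription factors that specify germ cells, read 72.5 and 58.9 against 121 and 91.8 and rose by 0.68 (adjusted p = 0.0421), with adjusted p = 0.069 in dTAG13 replicate 2 alone and 0.244 without DMSO replicate 2. Ifitm3 (Fragilis), a surface marker of early germ cells, rose by 0.49, with adjusted p = 0.221 without DMSO replicate 2.

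Prdm14, another specifying factor, read 25.5 and 22.6 FPKM with DMSO and 18 and 14.9 with dTAG13 and fell by 0.53 (adjusted p = 0.0421). Dnd1, an RNA-binding protein of germ cells, fell by 0.65 (adjusted p = 0.0323). Neither Prdm14 nor Dnd1 was called after median-ratio scaling. Neither passed without a DMSO library (adjusted p = 0.134 to 0.253). Prdm1 (Blimp1), the third of the specifying factors, read 7.19 and 6.42 against 3.37 and 4.09, a change of -0.72 that did not pass (SE 0.21, adjusted p = 0.0523). Kit, the receptor for stem cell factor, changed by -0.50 (adjusted p = 0.0597). Nanos3, an RNA-binding protein that keeps germ cells alive, read 55.2 and 50 against 38 and 56.9, so its dTAG13 values lay on both sides of the DMSO values.

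The central pluripotency factors showed no call. Pou5f1 (Oct4) read 760 and 675 FPKM with DMSO and 610 and 747 with dTAG13, Nanog 191 and 153 against 175 and 151, and Sox2 38 and 26.1 against 43 and 31.1. The groups overlapped in all 3 genes, and the changes of -0.09, -0.07 and 0.21 carried standard errors of 0.11, 0.14 and 0.20. Of 14 core pluripotency genes 2 fell (14.3%, beside 8.21% of all tested genes) and none rose, with a median of -0.27. Lin28a, the RNA-binding protein that blocks let-7 microRNAs, read 33.9 and 32 against 5.51 and 9.26. It fell by 2.05 (SE 0.22, adjusted p = 0.000709) and held in all leave-one-out fits. Sall4 fell by 0.72, with adjusted p = 0.225 without DMSO replicate 1 and 0.0522 without dTAG13 replicate 1.

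Of 18 naive pluripotency genes 3 fell (16.7%, beside 8.21% of all tested genes) and none rose, with a median of -0.26. Tcl1, a cofactor of Akt, read 130 and 128 FPKM with DMSO and 64.1 and 63.4 with dTAG13 and fell by 1.01 (SE 0.10, adjusted p = 0.000468), which held in all leave-one-out fits. The nuclear receptor Esrrb fell by 0.89 and the transcription factor Tfcp2l1 by 0.72, and neither passed without a DMSO library (adjusted p = 0.0618 to 0.159). Of 10 formative genes, which mark the state just before germ cell induction, Dnmt3b and Foxd3 fell, by 0.74 and 0.90, and neither passed without DMSO replicate 2 (adjusted p = 0.0861 and 0.162).

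DNA methylation and imprint control genes had a median of -0.43. Of 12 tested, 4 fell (33.3%, beside 8.21% of all tested genes) and none rose. Zfp57, the zinc finger protein that keeps methylation at imprinted regions, read 76.8 and 86.1 FPKM with DMSO and 25.3 and 34.9 with dTAG13. It fell by 1.42 (SE 0.17, adjusted p = 0.00144) and held in all leave-one-out fits. The methyltransferase Dnmt3b, the 5-methylcytosine oxidase Tet1 and the maintenance factor Uhrf1 fell by 0.74, 0.74 and 0.62, and none of these 3 passed without DMSO replicate 2.

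Krt8, Krt18 and Krt19, keratins of simple epithelia and trophoblast, rose, whereas Krt7 was not called. Krt8 read 38.7 and 35.5 FPKM with DMSO and 96.2 and 76.2 with dTAG13, and its partner Krt18 read 14.5 and 17.4 against 37.6 and 61.4. Krt19 read 4.54 and 3.88 against 15.2 and 18. The dTAG13 values of all 3 stood above the DMSO values. Krt8 rose by 1.19 (SE 0.16, adjusted p = 0.00273), Krt18 by 1.54 (SE 0.23, adjusted p = 0.004) and Krt19 by 1.76 (SE 0.27, adjusted p = 0.00441). Only Krt8 held in all leave-one-out fits, while Krt18 had adjusted p = 0.0516 without DMSO replicate 1 and Krt19 0.0558 without DMSO replicate 2.

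These keratins and Hand1 (a rise of 1.20) were the 4 of 8 tested trophoblast and amnion genes that rose, and none fell. The summed level of that list was 68.7 and 66.9 FPKM with DMSO and 159.7 and 189.7 with dTAG13, mostly keratin. Krt7 and Ascl2 were at 12.6 and 7.36 in dTAG13 replicate 2 and listed at 0 in replicate 1, against 2.91 and 3.02 and against 1.07 and 1.29 with DMSO. Of the 22 epithelial genes 7 rose (31.8%) and 1 fell (4.55%), beside 4.01% and 8.21% of all tested genes, with a median of 0.27. The epithelial and trophoblast lists share at least Krt8 and Krt19, so their counts are not separate results. The tight junction proteins Cldn4 and Cldn6 rose by 1.07 and 0.95 and the protease St14 by 0.88, and the splicing factor Esrp1 fell by 1.31. None of these 4 passed without DMSO replicate 2, nor did Hand1 (adjusted p = 0.0557 to 0.139).

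**Figure D4:**
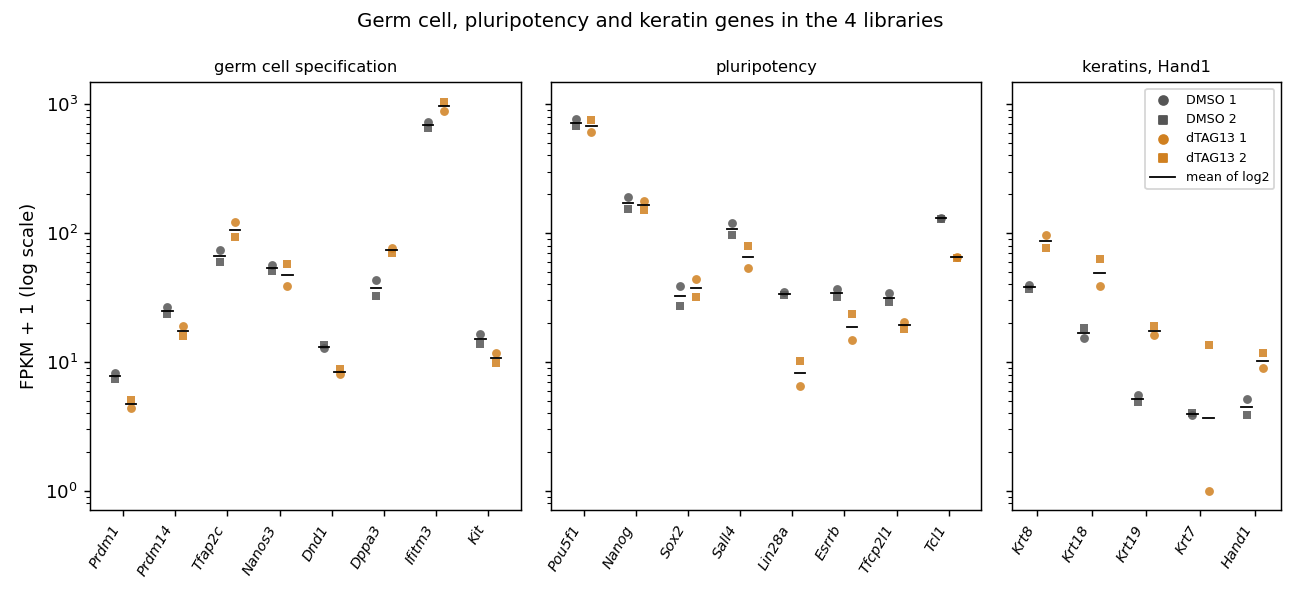
FPKM + 1 (log axis) of germ cell specification genes, pluripotency genes and keratins with Hand1 in each of the 4 libraries, grey for DMSO and orange for dTAG13, with circles for replicate 1, squares for replicate 2 and a bar at the mean of the log2 values. Pou5f1, Nanog and Sox2 overlap between groups, Lin28a and Tcl1 are lower and Krt8 higher in both dTAG13 libraries, and Krt7 is split between them.

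Markers of other cell types that the sort could hold were called in both directions. The mesoderm list summed to 35.2 and 27.6 FPKM with DMSO and 13.3 and 27.7 with dTAG13, the endothelial and blood list to 79.8 and 66.5 against 49.3 and 90.6, and the fibroblast list to 145.9 and 135.3 against 87.6 and 96. Of 7 tested mesoderm genes 2 rose (28.6%) and 1 fell (14.3%), and of 7 endoderm genes 2 fell (28.6%). Of 8 endothelial and blood genes 1 fell (12.5%), and of 9 neural genes 1 rose (Neurod1, 11.1%) and 4 fell (44.4%). Of all tested genes, 4.01% rose and 8.21% fell. In the neural list 4 of the 9 genes are listed at 0 in dTAG13 replicate 1. Its falls numbered 0 after quantile normalization and 2 after median-ratio scaling. With genes listed at 0 left out, 1 of 5 neural genes fell. None of the 12 tested genes of the 2-cell-like state passed. The defining genes Cdx2 and Elf5 of trophoblast and T of mesoderm were not analysed here. The part of other cells in the rise of these 3 keratins was not tested.

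Immediate response genes and targets of the YAP pathway were partly higher. Of 22 tested, 6 rose (27.3%, beside 4.01% of all tested genes) and none fell, with a median of 0.31. Cyr61, a matricellular protein and YAP target, read 18 and 15.8 FPKM with DMSO and 145 and 79.8 with dTAG13. Fosl1, a subunit of the AP-1 factor, read 0.458 and 0.6 against 10.5 and 6.4. Both were far above DMSO in each dTAG13 library. They rose by 2.60 (SE 0.29, adjusted p = 0.00108) and 2.59 (SE 0.25, adjusted p = 0.000468) and held in all leave-one-out fits. Axl, Fos, Junb and Dusp1 rose by 1.86, 1.18, 0.69 and 0.65, and none of the 4 passed without a DMSO library (adjusted p = 0.072 to 0.162).

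Cell cycle genes of the G1 to S step were mixed around a median of -0.51. Of 23 tested, 2 rose (8.7%) and 6 fell (26.1%), beside 4.01% and 8.21% of all tested genes. Ccne1, the cyclin that starts DNA replication with Cdk2, read 322 and 320 FPKM with DMSO and 165 and 146 with dTAG13. Cdkn2b, the p15 inhibitor of Cdk4 and Cdk6, read 15.3 and 11.9 against 42.5 and 45.5. The groups lay apart in both genes. Ccne1 fell by 1.04 (SE 0.13, adjusted p = 0.00214) and Cdkn2b rose by 1.64 (SE 0.18, adjusted p = 0.00108), and both held in all leave-one-out fits. Rb1, the retinoblastoma protein, rose by 1.03, while Cdk6, Cdkn1c, E2f2, Myc and Cdk2 fell by 1.73, 1.46, 1.13, 1.02 and 0.51. None of these 6 passed without a DMSO library, and Cdk6 and E2f2 are listed at 0 in dTAG13 replicate 1.

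Among 40 DNA replication genes 9 fell (22.5%, beside 8.21% of all tested genes) and none rose, with a median of -0.25. This group depended on the library: its median was -0.04 in dTAG13 replicate 1 and -0.40 in replicate 2. The thymidine kinase Tk1 (118 and 118 FPKM with DMSO, 56.4 and 75.4 with dTAG13) fell by 0.85. Geminin (Gmnn), which blocks a second firing of origins, read 229 and 213 against 129 and 120 and fell by 0.83. Mcm10 fell by 0.72, from 80.2 and 82.5 to 49.9 and 48.3. These 3 held in all leave-one-out fits, whereas Cdc6, Rrm1 and Lig1, with falls of 0.68, 0.63 and 0.61, did not pass without a DMSO library.

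Of 25 DNA repair genes 9 fell (36.0%) and 1 rose (4.0%), beside 8.21% and 4.01% of all tested genes, with a median of -0.34. The falls numbered 8 after quantile normalization and 5 after median-ratio scaling. The base excision scaffold Xrcc1 was the 1 that rose. It read 61.5 and 57.8 FPKM with DMSO and 131 and 110 with dTAG13, a rise of 0.995 (SE 0.12, adjusted p = 0.0018) that held in all leave-one-out fits. The helicase Blm fell by 1.11 and Brca1 by 0.76, and Rad54l, Xrcc5, Fanca and Ung fell by 0.61 to 0.69. None of these 6 passed without DMSO replicate 2 (adjusted p = 0.066 to 0.185). Chromatin regulators had 8 of 27 falling (29.6%, beside 8.21% of all tested genes) and none rising, with a median of -0.32. After quantile normalization 7 fell, and after median-ratio scaling 4 fell. The acetyltransferase Ep300, the remodeller Chd4, the Polycomb partner Jarid2, the H3K9 methyltransferase Ehmt1, the arginine methyltransferase Prmt1 and the H3K4 methyltransferase Kmt2d fell by 0.78 to 0.99. None of the 8 held in all leave-one-out fits.

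Fgf17, a fibroblast growth factor, read 38.7 and 44.3 FPKM with DMSO, 8.71 in dTAG13 replicate 2 and is listed at 0 in replicate 1. In replicate 2 it was 2.13 below the DMSO mean. With both dTAG13 libraries it fell by 3.77 (SE 0.76, adjusted p = 0.0148), a call lost without either DMSO library. Dusp9, a phosphatase that limits ERK, read 52.3 and 52.2 against 20.5 and 25.6 and fell by 1.15 (SE 0.16, adjusted p = 0.00294). The ERK-responsive factor Etv4 fell by 0.90 and did not pass without a DMSO library (adjusted p = 0.0799 and 0.0971). Of 24 FGF and ERK genes these 3 fell (12.5%, beside 8.21% of all tested genes) and none rose, with a median of -0.25.

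In the Nodal pathway, which like FGF supports the epiblast state, 3 of 15 genes fell and none rose. Lefty2, a Nodal target and inhibitor, read 170 and 160 FPKM with DMSO and 85.4 and 89.6 with dTAG13 and fell by 0.91 (SE 0.11, adjusted p = 0.00181), which held in all leave-one-out fits, as Dusp9 did. Inhbb, listed at 0 in dTAG13 replicate 1, fell by 1.67 and Skil by 0.85, and neither passed without a DMSO library. Gdf1, a ligand of the same family that is outside the list and was chosen after its values were seen, read 11.9 and 12.6 against 1.99 and 2.32 and fell by 2.07 (SE 0.16, adjusted p = 0.000225). In the BMP list, whose ligand Bmp4 induces germ cells, Bmp4 fell by 0.70 and Bmp7 rose by 1.76, and neither passed without DMSO replicate 2 (adjusted p = 0.201 and 0.0809).

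The ribosome, the best known object of the Tex10 complex, showed few called genes, while its protein genes lay mostly above the median of all genes. Of 48 nucleolar ribosome biogenesis genes 2 fell (4.17%), Nol6 by 0.57 and Tcof1 by 0.43, and none rose. The list median of -0.11 lay beside -0.13 for all genes. Neither of the 2 passed without a DMSO library. Of 81 cytosolic ribosomal protein genes 4 rose (4.94%) and 1 fell (1.23%), beside 4.01% and 8.21% of all tested genes. Their median was 0.16, and 77 of the 81 lay above the median of all genes. It was 0.05 after quantile normalization and 0.24 after median-ratio scaling, where the medians of all genes were -0.002 and -0.056. Both dTAG13 values lay above both DMSO values in 40 of the 81, beside 13.8% of all tested genes. The largest rise was that of Rps27l, a paralog of Rps27 that p53 is known to induce, which read 1655 and 1332 FPKM with DMSO and 2236 and 2322 with dTAG13. It rose by 0.62 (SE 0.10, adjusted p = 0.00632). Rps18, Rps19 and Rpl18 rose by 0.41 to 0.46 and did not pass without DMSO replicate 2.

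Rpl22l1, the paralog of Rpl22, was the ribosomal protein gene that fell. It read 335 and 291 FPKM with DMSO and 94 and 129 with dTAG13, a fall of 1.49 (SE 0.15, adjusted p = 0.000495). Rps27l and Rpl22l1 held in all leave-one-out fits. Ribosomal protein genes have many near-identical pseudogene copies, so their FPKM values are uncertain in either direction.

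The 18 genes that passed with 1 weight for the dTAG13 libraries were chosen after their values were seen. Besides Mdm2, Btg2, Plk2, Ddit3 and Fosl1 they include Gpx3, a secreted glutathione peroxidase, at 29.9 and 23.7 FPKM with DMSO and 174 and 136 with dTAG13. Serpine2, an inhibitor of serine proteases, read 27.9 and 22.2 against 128 and 100. Rgs14, a regulator of G protein signalling, read 1.04 and 0.775 against 15.8 and 13.7. These 3 rose by 2.49, 2.14 and 3.05 (SE 0.15, 0.15 and 0.21). Klhl26, Abhd4, Fbxw9, Cpz, Ms4a10 and Mst1 also rose, by 1.52 to 2.95.

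The 4 lower genes among the 18 include Fgf17, Gdf1 and Gfpt2, an enzyme of the hexosamine pathway. Gfpt2 read 137 and 130 FPKM with DMSO and 54.8 and 36.3 with dTAG13 and fell by 1.56 (SE 0.16, adjusted p = 0.000672). With the equal weights of the test used throughout, these 18 had adjusted p of 0.000205 to 0.0148.

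Libraries of the groups labelled OE and EV at day 2, in which Tex10 was 1.57 higher in OE, share no library with the DMSO and dTAG13 groups, and their values for the same genes are set side by side here without a test. Of the 483 genes that rose with dTAG13, 35.0% had a value above 0 in OE minus EV (median -0.18), of the 990 that fell 60.3% (median 0.07), and of all tested genes 55.3% (median 0.04). The p53 targets had a median of -0.29 in OE minus EV against 0.85 with dTAG13. Mdm2 was -0.77, Plk2 -1.03, Perp -1.21, Dcxr -1.25 and Cdkn1a -0.71. The ER folding genes had a median of -0.07 in OE minus EV and the sterol and fatty acid genes 0.21. For the trophoblast list the median was -0.12, against 0.82 with dTAG13.

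**Figure D5:**
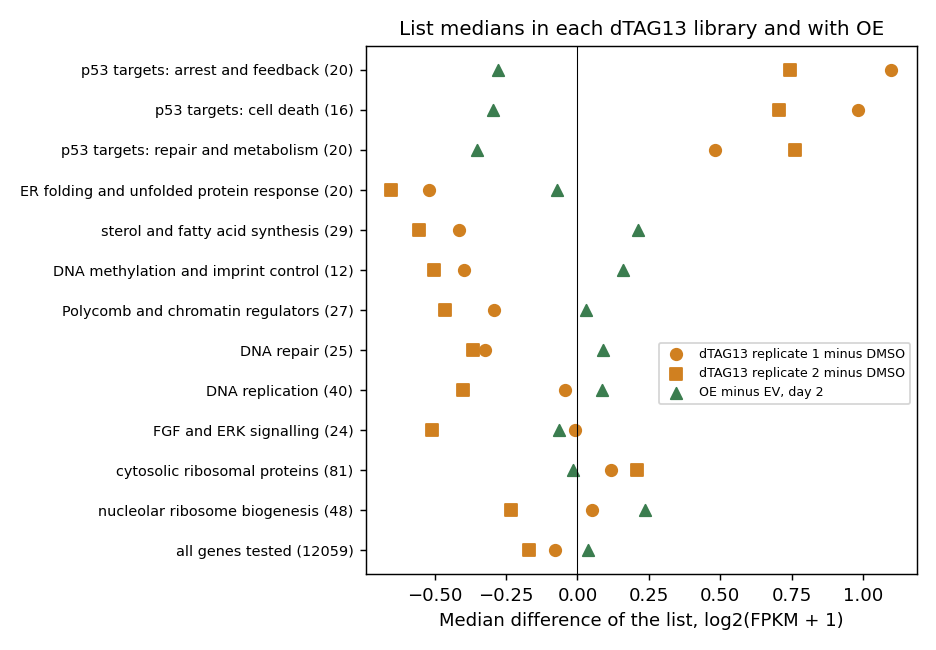
Median difference of each gene list in log2(FPKM + 1), with orange circles for dTAG13 replicate 1 minus DMSO, orange squares for dTAG13 replicate 2 minus DMSO and green triangles for OE minus EV at day 2. The p53 lists lie above 0 in both dTAG13 libraries and below 0 in OE, and the ER folding list lies below 0 in both dTAG13 libraries.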

How the data were processed

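Poly(A) RNA libraries of sorted PGCLCs were sequenced, per the labels. Per the submitters' processing notes, the authors used FastQC 0.10.1, Trim Galore 0.6.3, cutadapt, STAR 2.7.6a on mm10 and Cufflinks 2.2.1. Expression was deposited as FPKM, with 1 added to each value, for 12955 genes, and that 1 was subtracted here. Depth is unknown, so no counting interval could be given.

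Genes with 1 FPKM or more in 2 of 12 libraries were tested with limma 3.58.1 (R 4.3.3) on log2(FPKM + 1), computed here from the deposited FPKM. One model held all 6 groups with a trended prior, and Benjamini-Hochberg adjusted p below 0.05 over 12059 genes counted as a change. Errors are standard errors of that model with n = 2 per group. The fit was run on simulated data with normal noise, which did not imitate the many genes listed at 0 in dTAG13 replicate 1. That run is no check on the calls reported here. One title spells the compound differently, and the treatment field was used.

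The 51 gene lists and the members described were chosen with earlier results of these data known, so list counts are descriptions, with no set test. Of 1190 list symbols 1050 were in the table and 1013 were tested. Named genes are Tex10 and Itgb3; up to 20 per direction by size of change, with non-overlapping libraries and a mean of 5 FPKM in the higher group; up to 6 called members of each list per direction, or up to 4 highly expressed members as plain values; up to 8 genes listed at 0 in dTAG13 replicate 1; and up to 10 per direction called in replicate 2 alone. Others were chosen after their values were seen: uncalled members of a called list, ER stress element genes and genes passing with 1 dTAG13 weight. Gene positions and promoters came from RefSeq (GRCm38.p6). Python 3.11.15, pandas 2.3.3, numpy 2.4.6 and matplotlib 3.10.9 were used.

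Some genes of the lists are not reported here by name.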

Additional observations from a re-analysis of the deposited data

How the results depend on the processing

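Counts of genes called higher and lower (483 and 990) moved by over 1.5 times under these settings. They were 730 higher after quantile normalization, 598 lower after median-ratio scaling, 0 and 0 with only the 2 groups compared, 14 and 6 with sample quality weights, and 195 and 177 at an adjusted p below 0.01. Leaving out 1 library gave 120 to 3170 higher and 79 to 4092 lower, the top of each range being the fit without dTAG13 replicate 2. With the replicate block 312 rose and 337 fell. The labels do not say that equal numbers pair libraries, and deviations of equal numbers correlated at -0.11, so a crossed replicate block was added after seeing the data (316 and 467). Also added after seeing the data were 1 weight for the dTAG13 libraries (14 and 4) and a fit without genes listed at 0 in dTAG13 replicate 1 (515 and 903). No called gene changed sign under any of these settings. Among the uncalled genes named, leaving out 1 library gave both signs for Las1l (-0.40 to 0.20), Nol9 (-0.19 to 0.87), Atf4 (-0.85 to 0.61), Creld2 (-0.29 to 0.02), Nanos3 (-0.46 to 0.11), Pou5f1 (-0.23 to 0.06), Nanog (-0.23 to 0.09), Sox2 (-0.05 to 0.47), Krt7 (-1.99 to 1.77) and Ascl2 (-1.12 to 1.94). The sign also turned for Nanog (0.01) under median-ratio scaling, Krt7 under quantile normalization (0.32) and with 5 added before log2 (0.23), and Ascl2 with 0.1 added (-0.56). The cause was not tested. Of the 132 called genes named, 47 passed in each fit without 1 library. The p53 targets called higher numbered 27 with the replicate block, the ER folding genes called lower 9, and the sterol and fatty acid genes 4.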

Other observations

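Other gene groups were counted in the same way. Of 39 nuclear genes of oxidative phosphorylation none passed in either direction, with a median of -0.01. Of 29 proteasome genes 2 fell (6.9%), with a median of -0.08. Of 34 mitosis genes 3 fell (8.82%), and of 28 glycolysis and hypoxia genes 2 fell (7.14%). Of all tested genes, 4.01% rose and 8.21% fell. After median-ratio scaling no mitosis or glycolysis gene was called lower. Among 17 cytosolic chaperones 1 rose (5.88%) and 3 fell (17.6%). The small heat shock protein Cryab rose by 2.11 and Hsph1, a partner of Hsp70, fell by 0.96, and both held in all leave-one-out fits. Ahsa1 and Hspa4 fell by 0.49 and 0.47 and did not pass without a DMSO library. Of 14 tubulin genes 1 rose (7.14%) and 4 fell (28.6%). Txnip, which binds thioredoxin and restrains glucose uptake, rose by 1.44 and also held. Of 21 BCL2 family and caspase genes 3 fell (14.3%) and none rose. Bok fell by 1.11 and held, and Bak1 fell by 1.01, with adjusted p = 0.136 without DMSO replicate 1 and 0.0698 without DMSO replicate 2. Median changes of the autosomes and X, with the 4 genes of Y left out, ran from -0.21 on X to -0.08 on chromosome 12.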
